A study of Mus musculus with 4 samples.

Results

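The 9 monocyte marker genes described here are Ly6c2, Plac8, F13a1, Fn1, Vcan, Treml4, Ace, Nr4a1 and Spn, chosen by name from the 23337 gene names of the deposited tables. Each stood on a single row of every table. RNA sequencing measured them in sorted liver macrophages (Kupffer cells) of Lyz2cre-RosaYFP reporter mice of both sexes, 6 to 8 weeks old. The study has 2 libraries of YFP+ and 2 of YFP− cells. In these mice Cre recombinase is made from the Lyz2 (lysozyme) locus, which is active in monocytes and neutrophils as well as macrophages, and switches on yellow fluorescent protein (YFP) for good. A YFP+ cell therefore had expressed Cre itself or descended from one that did, and the YFP− cells came from the same reporter strain. In each group 1 library title begins with M and 1 with FM, letters the labels leave unexplained. Whether a library came from 1 mouse or a pool is also not stated, so the p-values speak only of these libraries. In the main fit they rest on a variance trend over all genes, not on each gene's own spread between libraries.

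Mouse blood monocytes are of 2 main kinds. Classical monocytes carry much Ly6C and the chemokine receptor CCR2, leave the blood at sites of damage and can become macrophages, in the liver also Kupffer cells when the niche is emptied. Nonclassical monocytes carry little Ly6C and much CX3CR1, patrol the vessel wall and depend on the nuclear receptor Nr4a1. Ly6c2, Plac8, F13a1, Fn1 and Vcan are used as markers of the classical kind, and Treml4, Ace, Nr4a1 and Spn of the nonclassical kind. None of the 9 is made by monocytes alone.

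Ly6c2 has a neighbour of nearly the same sequence, Ly6c1, and their letters are shown because they bear on how far the values of either gene can be told apart. Over the 396 bases of coding sequence, stop codon included, the main GENCODE M21 transcripts of the pair differ at 9 bases (97.7% identical), and the longest stretch without a difference runs for 188 bases. The first 210 coding bases follow, with the 6 bases that differ in capitals.
Ly6c2: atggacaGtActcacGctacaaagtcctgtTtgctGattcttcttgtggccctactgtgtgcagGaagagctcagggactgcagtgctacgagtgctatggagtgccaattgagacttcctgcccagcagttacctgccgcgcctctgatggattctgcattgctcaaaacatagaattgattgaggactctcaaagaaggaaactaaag
Ly6c1: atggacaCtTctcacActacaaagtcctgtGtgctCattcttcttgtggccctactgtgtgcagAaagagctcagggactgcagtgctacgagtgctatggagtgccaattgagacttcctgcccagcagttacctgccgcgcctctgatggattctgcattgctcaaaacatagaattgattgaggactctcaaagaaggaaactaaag

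A pair of promoters is shown for the motifs they hold, from 250 bases before to 30 after the start of transcription nearest to the deposited gene (RefSeq, GRCm38.p6). That of Nr4a1, an immediate-early gene, lies at chr15:101266596-101266875 on the plus strand and holds 4 copies of TGCGTCA, a sequence close to the cAMP response element, in capitals. That of Ly6c2 lies at chr15:75111908-75112187 on the minus strand and holds 2 copies of GAGGAAGT, a site of the myeloid factor PU.1 (Spi1), in capitals.
Nr4a1: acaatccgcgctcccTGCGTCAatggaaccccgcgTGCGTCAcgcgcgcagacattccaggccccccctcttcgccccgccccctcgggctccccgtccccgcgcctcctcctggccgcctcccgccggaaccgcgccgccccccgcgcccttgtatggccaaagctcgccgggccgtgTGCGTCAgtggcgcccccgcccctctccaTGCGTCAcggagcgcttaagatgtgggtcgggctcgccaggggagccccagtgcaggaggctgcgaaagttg
Ly6c2: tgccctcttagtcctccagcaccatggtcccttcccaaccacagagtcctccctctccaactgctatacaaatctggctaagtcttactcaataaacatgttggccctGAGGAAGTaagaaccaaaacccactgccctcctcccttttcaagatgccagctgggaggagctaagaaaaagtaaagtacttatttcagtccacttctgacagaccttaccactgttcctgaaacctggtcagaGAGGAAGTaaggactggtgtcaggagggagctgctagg

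Both strands were searched, no window shown holds both motifs, and TGCGTCA was chosen after the Nr4a1 sequence had been read. Of 32851 RefSeq promoter windows of this length, 2.04% held TGCGTCA, and 1 window, that of Nr4a1, held 4 or more copies. GAGGAAGT was in 2.82% of windows, and 0.0457% held 2 or more. Neither motif was found in these windows of Ly6c1, Plac8, F13a1, Vcan, Treml4, Ace or Spn, and Fn1 has no entry.

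Values are TPM, a transcript abundance scaled for length, which the authors deposited and which sums to a fixed total in each library, so a value moves with the other transcripts of its library. Depth is known here only as mean read coverage, which at 1 FPKM (the fragment count scaled for gene length and library size) lay between 2.59 and 9.19 over the 4 libraries. The label was checked against marker lists. Summed over 10 Kupffer cell markers, TPM was 34346 and 33181 in YFP+ libraries, against 6008 and 12520 in YFP− libraries, with 5 of 10 called higher. That count was 0 under quantile normalization and cyclic loess, where limma gave 4 and 5 at an unadjusted p under 0.05, and 6 under median-ratio scaling. With each library left out it was 1 to 5. Summed over 8 microglia markers it was 969 and 73.0 in YFP+ libraries, against 16857 and 15261 in YFP− libraries, with 8 of 8 called lower (2 of 8 under cyclic loess). For 9 neutrophil markers it was 1644 and 7108 in YFP+ libraries, against 2196 and 4451 in YFP− libraries, with 1 of 9 called lower. Both YFP− libraries thus held much transcript of genes that mark microglia, the macrophages of the brain, and no comparison without them is possible. The part of this in the results below was not tested.

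Of the 9 genes, 8 reached 1 TPM in at least 2 libraries and were tested together with all other such genes, and Vcan did not. Fold changes are YFP+ over YFP− on the log2(TPM + 1) scale, on which changes of low genes come out too small, with the standard error (SE) of limma and its p-value after Benjamini-Hochberg adjustment over 12251 genes. With a threshold of 0.05, 2 of the 8 genes, F13a1 and Fn1, were called lower in YFP+ libraries and 0 were called higher. At an unadjusted p under 0.05, limma placed 3 of the 8 lower, Ace being the third, and 0 higher. Over all tested genes 39.5% were called lower and 0.522% higher, so 2 of 8 is no more than the share of genes in general. The 8 genes had a median change of -1.47, against -1.73 over all tested genes, whose median was -1.01 in M libraries and -2.48 in FM libraries. A value near -1.73 thus marks a gene that changed as a typical gene did.

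**Figure D1:**
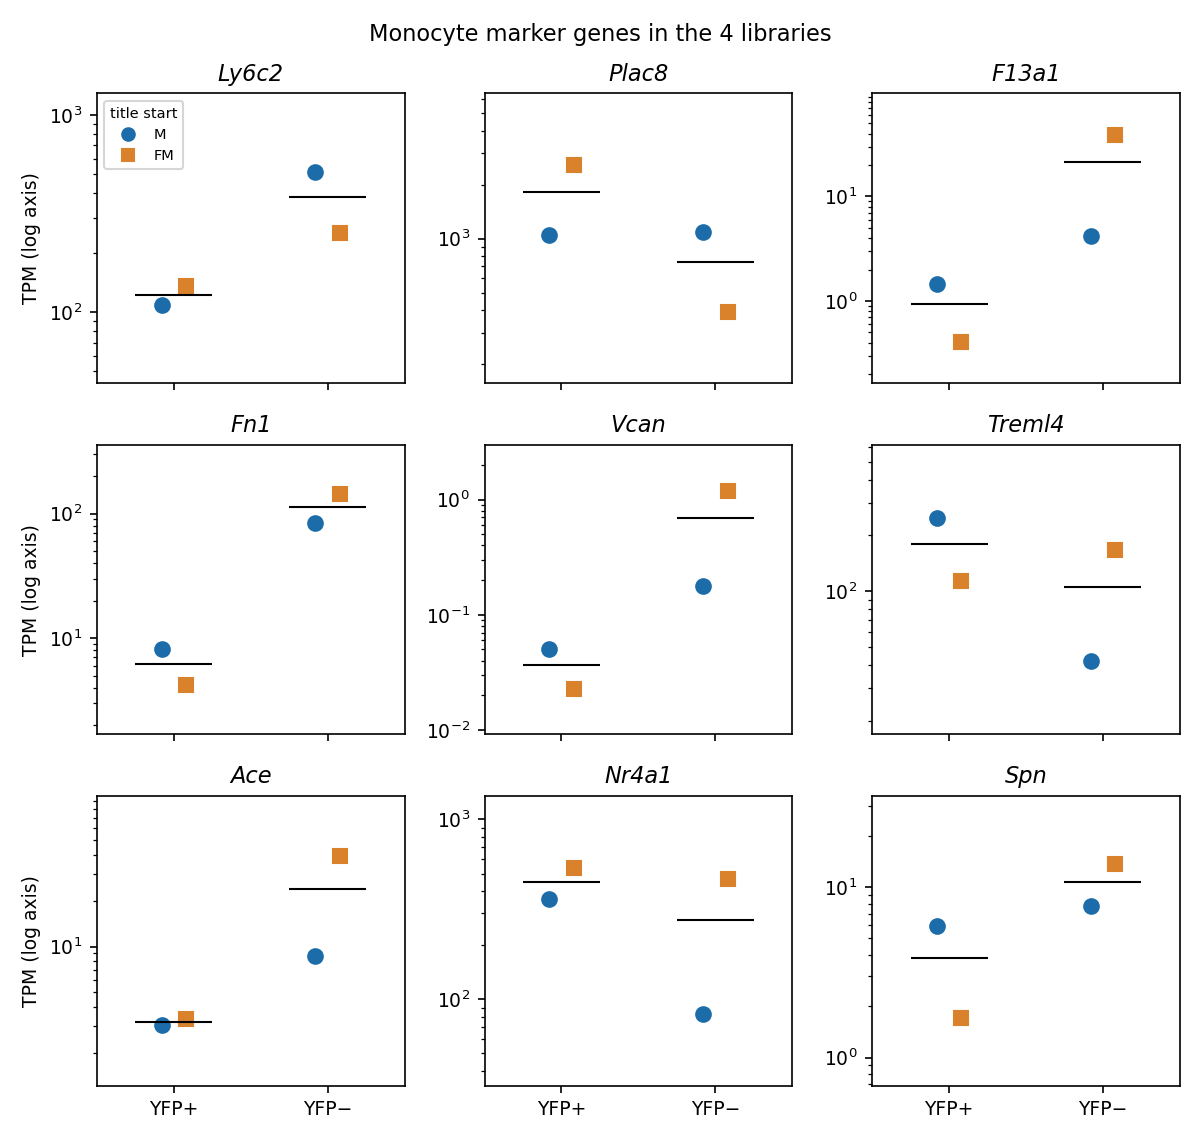
TPM of each monocyte marker gene (log axis) in YFP+ and YFP− libraries. Circles are libraries with a title starting with M, squares FM, and bars the group means. Fn1 and F13a1 lie lower in both YFP+ libraries, while Plac8, Treml4 and Nr4a1 overlap between the groups.

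Ly6c2, a lipid-anchored surface protein by which classical monocytes are sorted, was at 109 TPM in the YFP+ M and 136 TPM in the YFP+ FM library, against 513 TPM in the YFP− M and 252 TPM in the YFP− FM library. Both YFP+ libraries lay below both YFP− libraries. The log2 fold change was -1.55 (SE 0.88, adjusted p = 0.129), which did not pass and lay 0.18 above the median of all genes. With libraries scaled by median ratios its sign turned (0.74, adjusted p = 0.560). The change was -0.88 under quantile normalization (adjusted p = 0.507) and -1.03 under cyclic loess (adjusted p = 0.398). These lay -0.84 and -1.02 from the median of all genes, against 0.82 under median-ratio scaling. The gene is on chromosome 15, from 75108161 to 75111949 (GRCm38, minus strand).

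The near copy Ly6c1, which mouse endothelium also makes, was at 55.3 and 8.36 TPM in YFP+ libraries (M, then FM, as throughout), against 1147 and 433 TPM in YFP− libraries. It fell, with a log2 fold change of -4.94 (SE 0.93, adjusted p = 5.48e-05). It no longer passed under cyclic loess (adjusted p = 0.0583), and without the YFP− M library its change was -4.24. Its ratio to Ly6c2 does not depend on how libraries are scaled. Ly6c2 to Ly6c1 stood at 1.97 and 16.3 in YFP+ libraries, against 0.447 and 0.581 in YFP− libraries, so the ratios did not overlap. The log2 ratio was 3.47 higher in YFP+ libraries, and 1.95 to 5.0 higher with each library left out. An exact two-sided permutation test gave p = 0.333, the smallest p that 2 against 2 libraries allow. This ratio was picked after the values were seen. Taken from mean coverage it was 3.84 and 31.5 in YFP+ libraries, against 0.868 and 1.13 in YFP− libraries, so which gene of the pair was higher in the YFP− FM library depended on the measure used. Given the identical stretches shown above, how the authors' counting split reads between them is uncertain. Summed over 10 endothelial markers TPM was 263 and 117 in YFP+ libraries, against 1267 and 1481 in YFP− libraries. Of these 10 genes 8 were called lower, 0 higher, and none was listed at 0. Their part in the fall of Ly6c1 was not tested.

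**Figure D2:**
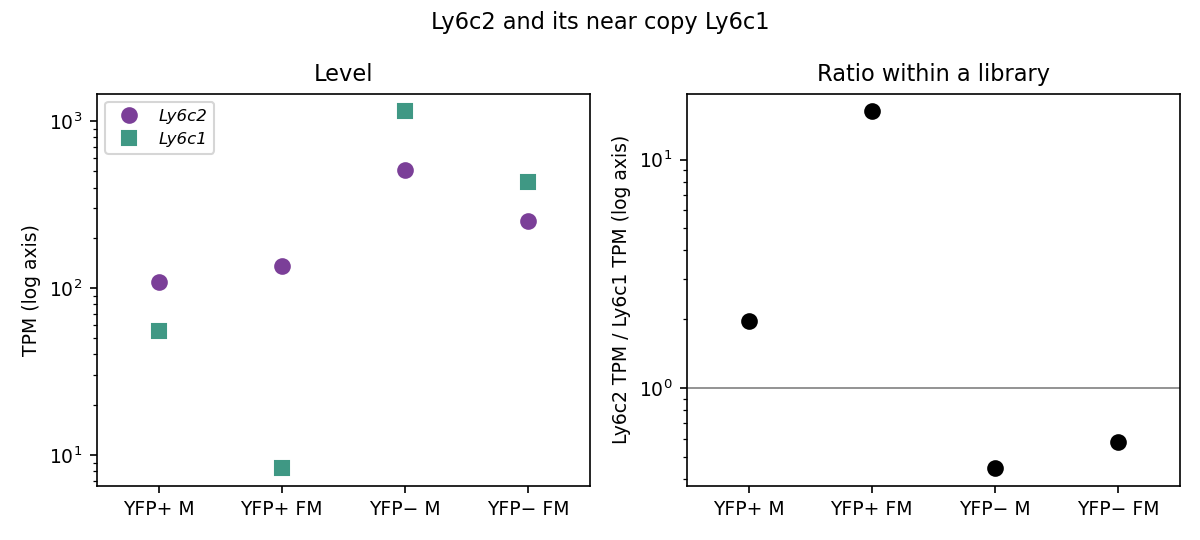
Left, TPM of Ly6c2 and Ly6c1 (log axis) in each library. Right, their ratio within each library (log axis), with a grey line at equal levels. In TPM Ly6c2 is the higher gene in both YFP+ libraries (ratios of 1.97 and 16.3) and the lower in both YFP− libraries (0.447 and 0.581).

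Plac8, a small cysteine-rich protein of classical monocytes that plasmacytoid dendritic cells and lymphocytes also make, was the most abundant of the 9 genes in every library except the YFP− FM library, where Nr4a1 was. It was at 1046 TPM in the YFP+ M and 2574 TPM in the YFP+ FM library, against 1094 TPM in the YFP− M and 391 TPM in the YFP− FM library. The groups overlapped, since both M libraries stood at nearly the same level and the difference lay between the FM libraries. The log2 fold change was 1.33 (SE 0.73, adjusted p = 0.120), and it passed on FPKM (1.87, adjusted p = 0.0455) and without the YFP− M library (2.07, adjusted p = 0.0387). Without the YFP+ FM library it was 0.68 (adjusted p = 0.675) and without the YFP− FM library 0.58 (adjusted p = 0.680). Plac8 to Ly6c2, a ratio also picked after the values were seen, was 9.60 and 18.9 in YFP+ libraries, against 2.13 and 1.56 in YFP− libraries. The gene lies on chromosome 5, from 100553733 to 100572205 (minus strand). Summed TPM of 5 B cell markers was 513 and 75.9 in YFP+ libraries, against 589 and 571 in YFP− libraries, with 2 of 4 tested called lower. That of 5 plasmacytoid dendritic cell markers was 98.7 and 17.3 in YFP+ libraries, against 370 and 125 in YFP− libraries, with 3 of 5 called lower and Klk1 listed at 0 in the YFP− FM library. Of the latter sum Ly6d alone gave 93.6 and 16.2 in YFP+ libraries, against 349 and 101 in YFP− libraries. Ly6d was not called (adjusted p = 0.0514). The 3 called lower were Ccr9, Pacsin1 and Runx2, which reached at most 9.99 TPM (Ccr9 in the YFP− FM library). The part of B cells and plasmacytoid dendritic cells in the level of Plac8 was not tested.

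F13a1, the catalytic subunit of coagulation factor XIII, which cross-links fibrin, was at 1.46 and 0.409 TPM in YFP+ libraries, against 4.16 and 38.7 TPM in YFP− libraries. Both YFP+ libraries were lower, but the YFP− FM library stood far above the YFP− M library. The fold change was -2.94 (SE 0.95, adjusted p = 0.0105), or 7.70-fold lower on that scale and 1.21 below the median of all genes. In M libraries the log2 difference of F13a1 was -1.07, against a median of -1.01 over all tested genes. In FM libraries it was -4.82, against a median of -2.48. The call ended under quantile normalization (-1.03, adjusted p = 0.419), median-ratio scaling (-1.38, adjusted p = 0.130) and cyclic loess (-0.83, adjusted p = 0.548). The change was -2.54 without the YFP+ FM library, -4.41 without the YFP− M library and -1.47 without the YFP− FM library. With either YFP− library left out few genes of any kind were called lower, so those fits cannot decide the call. Mean coverage of F13a1 was 4.66 and 0.849 in YFP+ libraries, against 22.4 and 42.8 in YFP− libraries. The gene spans chromosome 13, 36867178 to 37050244 (minus strand). Some tissue macrophages at the borders of the brain and other organs make F13a1. Summed TPM of 6 markers of such border-associated macrophages was 200 and 54.7 in YFP+ libraries, against 287 and 870.0 in YFP− libraries, with 3 of 6 called lower and none at 0. For 5 platelet markers it was 35.5 and 10.7 in YFP+ libraries, against 65.8 and 112 in YFP− libraries, with 3 of 5 called lower and Ppbp listed at 0 in the YFP+ FM library. The part of either in the fall of F13a1 was not tested.

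Fn1, fibronectin, a matrix glycoprotein of monocytes that hepatocytes, endothelium and fibroblasts also make, was at 8.11 and 4.22 TPM in YFP+ libraries, against 84.2 and 143 TPM in YFP− libraries. The groups stood well apart, and each YFP− library was over 10 times the higher YFP+ library. Its log2 fold change of -4.00 (SE 1.08, adjusted p = 0.00215), or 16.0-fold lower, lay 2.27 below the median of all genes. Fn1 kept its call under median-ratio scaling (-1.84, adjusted p = 0.0401). It missed the threshold under quantile normalization (-2.33, adjusted p = 0.0542) and cyclic loess (-2.20, adjusted p = 0.0704). Its change was -4.38 without the YFP− M library and -3.63 without the YFP− FM library. With 1 YFP− library left out few genes of any kind were called lower, so such a fit cannot decide the call. The gene lies on chromosome 1, 71585523 to 71653171 (minus strand). For 9 hepatocyte markers summed TPM was 2114 and 1732 in YFP+ libraries, against 2724 and 6290 in YFP− libraries, with 1 of 9 called lower. Of that sum Trf alone gave 1807 and 1055 in YFP+ libraries, against 1399 and 4190 in YFP− libraries. The gene called lower was Ttr, at 55.5 and 51.9 TPM in YFP+ libraries, against 1053 and 830 TPM in YFP− libraries. The other 8 hepatocyte markers were not called, with log2 fold changes from -1.22 (Cyp2e1) to 0.89 (Apoa1). Ttr thus does not stand for the list. For 9 stellate cell and fibroblast markers summed TPM was 7.74 and 2.39 in YFP+ libraries, against 85.8 and 125 in YFP− libraries. Of these, 5 of 6 tested were called lower, and Lum was listed at 0 in both YFP+ libraries. Their part in the fall of Fn1, and that of endothelium, was not tested. In a bulk sample of this kind, fewer cells of a type and less RNA per cell cannot be told apart.

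Vcan, versican, a large chondroitin sulfate proteoglycan that oligodendrocyte precursors and fibroblasts also make, was near the lower limit of measurement. It was at 0.0509 and 0.0229 TPM in YFP+ libraries, against 0.177 and 1.20 TPM in YFP− libraries. Mean coverage was 0.133 and 0.0408 in YFP+ libraries, against 0.769 and 1.14 in YFP− libraries. Only the YFP− FM library reached 1 TPM, so Vcan was not tested. With no filter on low values its log2 fold change was -0.63 (adjusted p = 0.0195) on a scale where 1 TPM is added before taking logs. Summed TPM of 8 oligodendrocyte lineage markers was 27.9 and 1.65 in YFP+ libraries, against 640.5 and 661 in YFP− libraries, with 3 of 3 tested called lower and Mog, Sox10 and Olig2 listed at 0 in both YFP+ libraries. Of that sum Mbp alone gave 27.3 and 1.65 in YFP+ libraries, against 626 and 643 in YFP− libraries. Pdgfra reached at most 0.819 TPM and Cspg4 1.20 TPM, both in the YFP− FM library, and neither was tested. The part of oligodendrocyte lineage cells in the level of Vcan was not tested. The gene lies on chromosome 13, 89655310 to 89742512 (minus strand).

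Treml4, a TREM-like receptor that marks nonclassical monocytes and is also found on dendritic cells and tissue macrophages, was at 247 and 114 TPM in YFP+ libraries, against 42.0 and 167 TPM in YFP− libraries. The groups overlapped: the YFP+ library was the higher of the M libraries and the lower of the FM libraries. The log2 fold change was 0.99 (SE 0.93, adjusted p = 0.358), 2.72 above the median of all genes. With single libraries left out it was 0.0057 without YFP− M, 0.44 without YFP+ M, 1.54 without YFP+ FM and 1.97 without YFP− FM, and none of these passed. Under median-ratio scaling Treml4 was called higher (3.26, adjusted p = 0.00884), and under quantile normalization (2.10, adjusted p = 0.154) and cyclic loess (1.88, adjusted p = 0.184) it was not. Ly6c2 to Treml4, a ratio of a classical to a nonclassical marker picked after the values were seen, was 0.441 and 1.19 in YFP+ libraries, against 12.2 and 1.5 in YFP− libraries. These did not overlap, but the FM libraries were close to each other, and the exact permutation p is again 0.333. The gene lies on chromosome 17, 48264295 to 48275358 (plus strand).

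Ace, the angiotensin-converting enzyme, is carried by nonclassical monocytes and by endothelium and choroid plexus. It was at 3.04 and 3.32 TPM in YFP+ libraries, against 8.60 and 39.1 TPM in YFP− libraries. The YFP+ libraries agreed closely and lay below both YFP− libraries, which differed over 4-fold. The log2 fold change of -2.23 (SE 1.13, adjusted p = 0.0930) did not pass, and it shrank to -0.19 under median-ratio scaling (adjusted p = 0.851) and -0.016 under cyclic loess (adjusted p = 0.991). Without the YFP+ M library Ace was called lower (-2.18, adjusted p = 0.0454), and without the YFP− FM library its change was -1.20 (adjusted p = 0.743). Summed TPM of 5 choroid plexus markers was 1.49 and 0.523 in YFP+ libraries, against 20.8 and 19.1 in YFP− libraries, with 5 of 5 called lower and Kl, Otx2, Clic6 and Kcne2 listed at 0 in at least 1 library. The part of these and of the endothelial markers in the level of Ace was not tested. The gene lies on chromosome 11, 105967945 to 105989964 (plus strand). In GENCODE M21 Ace, F13a1 and Fn1 each share exon bases with an antisense gene. The strandedness of the libraries was not given in the sources used here, so reads of such pairs may not be told apart.

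Nr4a1 encodes Nur77, an orphan nuclear receptor that nonclassical monocytes need and that many stimuli, cell handling included, induce within minutes. It was at 362 and 539 TPM in YFP+ libraries, against 82.8 and 466 TPM in YFP− libraries. The YFP− M library was low and the other 3 were high. The log2 fold change was 1.16 (SE 0.85, adjusted p = 0.236), 2.89 above the median of all genes, and without the YFP− M library it was -0.076 (adjusted p = 0.944), against 2.40 without the YFP− FM library (adjusted p = 0.591). Under median-ratio scaling Nr4a1 was called higher (3.45, adjusted p = 0.0277). Of 10 other immediate-early genes 0 were called higher and 1, Jun, lower. At an unadjusted p under 0.05, limma gave 1 higher, the phosphatase gene Dusp1. These 10 genes had a median change of 0.35, and their summed TPM was 17127 and 16804 in YFP+ libraries, against 9030 and 14460 in YFP− libraries. Like Nr4a1 the sum was lowest in the YFP− M library. Relative to Fos, the immediate-early partner of Jun, Nr4a1 stood at 0.0987 and 0.167 in YFP+ libraries, against 0.0639 and 0.229 in YFP− libraries, which overlap. The part of immediate-early induction in the level of Nr4a1 was not tested. Of its relatives, Nr4a2 was at 3.14 and 3.28 TPM in YFP+ libraries, against 7.87 and 57.5 TPM in YFP− libraries (-2.44, adjusted p = 0.0702). Nr4a3 stayed under 1 TPM in all 4 libraries. Nr4a1 lies on chromosome 15, 101266846 to 101274794 (plus strand), with the 4 motif copies shown above at -235, -215, -71 and -42 from its start.

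Spn, the sialoglycoprotein CD43, is high on nonclassical monocytes and on T cells. It was at 5.92 and 1.71 TPM in YFP+ libraries, against 7.77 and 13.7 TPM in YFP− libraries. Both YFP+ libraries were lower, but the M libraries differed little (-0.34 on the log2 scale). The log2 fold change of -1.39 (SE 1.08, adjusted p = 0.267) did not pass, and its sign turned under quantile normalization (0.69), median-ratio scaling (0.51) and cyclic loess (0.84). Without the YFP+ M library Spn was called lower (-2.07, adjusted p = 0.0394), and without the YFP+ FM library its change was -0.71 (adjusted p = 0.596). For 10 T and NK cell markers summed TPM was 228 and 113 in YFP+ libraries, against 1397 and 579 in YFP− libraries, with 7 of 10 called lower, 0 higher and none at 0. Their part in the level of Spn was not tested. The gene lies on chromosome 7, 127133464 to 127137817 (minus strand).

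**Figure D3:**
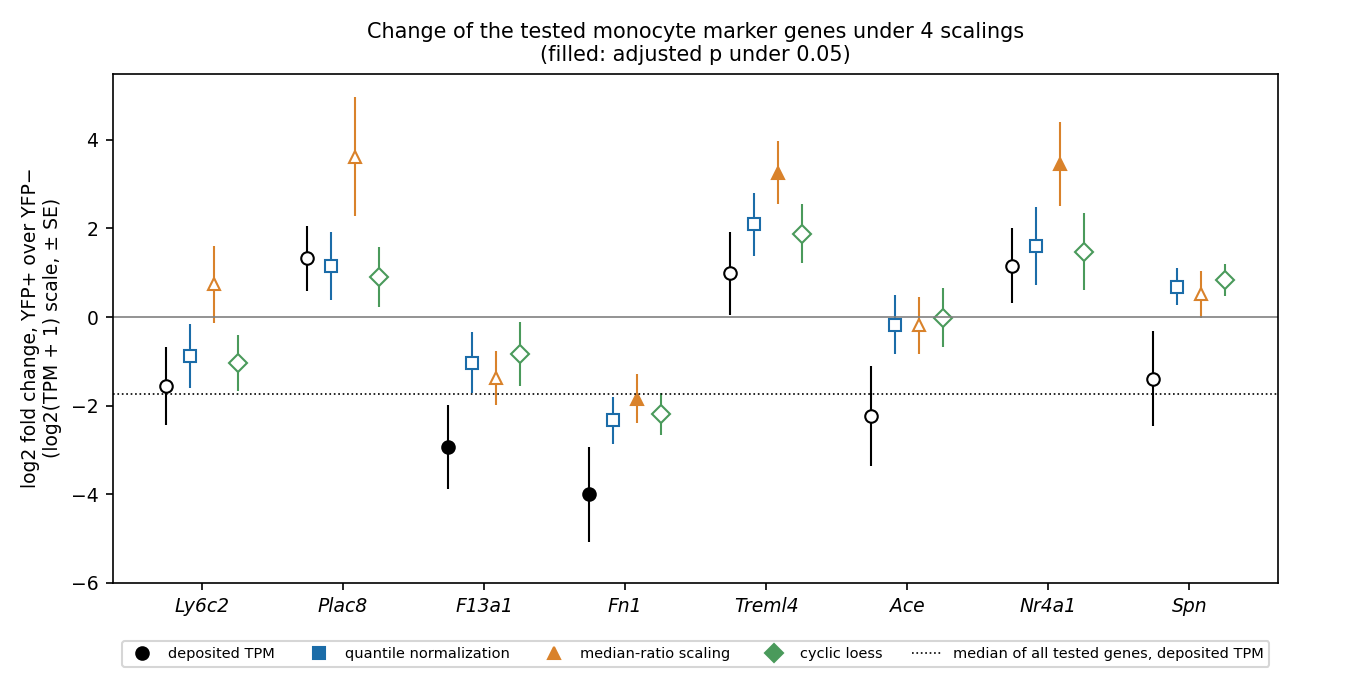
Log2 fold change of the 8 tested genes, YFP+ over YFP− (log2(TPM + 1) scale, bars are SE), on deposited TPM and under 3 rescalings. Filled symbols have an adjusted p under 0.05, the dotted line is the median of all tested genes on deposited TPM (-1.73). F13a1, Fn1 and Ace lie below 0 and Plac8, Treml4 and Nr4a1 above 0 under all 4. Ace is close to no change under cyclic loess (-0.016), and Ly6c2 and Spn turn sign.

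Rescaling the libraries to a common level moved the median of all genes to -0.032 (quantile normalization), -0.082 (median-ratio scaling) or -0.0088 (cyclic loess). Of the 8 tested genes, quantile normalization called 0, where 1.67% of all genes were called lower and 1.21% higher. Median-ratio scaling called Fn1 lower and Treml4 and Nr4a1 higher, where 5.9% of all genes were called lower and 5.62% higher. Cyclic loess called 0, where 0.327% were called lower and 0.531% higher. At an unadjusted p under 0.05, limma gave Fn1 lower and Treml4 higher under both quantile normalization and cyclic loess. Under these 3 rescalings F13a1, Fn1 and Ace stayed below 0, and Plac8, Treml4 and Nr4a1 above 0. The counts called lower in most marker lists of other cells shrank too. Of the 10 T and NK cell markers 0 were called lower under quantile normalization, 1 under median-ratio scaling and 0 under cyclic loess, with 1 at an unadjusted limma p under 0.05 under each. Of the 5 choroid plexus markers 0 were called lower under quantile normalization, 2 under median-ratio scaling and 0 under cyclic loess, with 1, 4 and 0 at an unadjusted limma p under 0.05. Endothelial markers called lower numbered 4, 6 and 1 of 10 in the same order, and stellate cell and fibroblast markers 1, 2 and 1 of 6. Under median-ratio scaling 2 endothelial and 2 hepatocyte markers were called higher. With either YFP− library left out few genes of any kind were called lower, so lost calls in these lists say little of them. In TPM, 6 of the 9 genes had both YFP+ libraries below both YFP− libraries, as did 79.7% of all tested genes, and 0 had both above, as did 2.5%.

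Ranks within a library do not depend on scaling and gave a different order, an analysis added after the data were seen. Among tested genes Fn1 stood at percentiles 55.9 and 64.9 in YFP+ libraries, against 87.4 and 90.2 in YFP− libraries. The receptor Treml4 stood at percentiles 96.2 and 95.4 in YFP+ libraries, against 75.8 and 91.9 in YFP− libraries. Spn, though lower in TPM, stood at percentiles 48.8 and 49.0 in YFP+ libraries, against 33.1 and 38.2 in YFP− libraries. Thus 1 of the 8 tested genes ranked lower in both YFP+ libraries, as did 30.1% of all tested genes, and 2 ranked higher, as did 24.7%. For Ly6c2 the percentiles were 93.2 and 95.8 in YFP+ libraries, against 97.9 and 94.9 in YFP− libraries, which overlap. Those of F13a1, called lower on deposited TPM, were 21.9 and 25.4 in YFP+ libraries, against 20.1 and 66.1 in YFP− libraries. These overlap too. Plac8 was at percentile 96.8 or above in every library.

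Other genes of the monocyte programme are given as counts from fixed lists, to be read against the 39.5% of all genes called lower and 0.522% called higher. Of 13 further genes of classical monocytes 1 was called higher and 5 lower, with a median change of -2.0. The chemokine receptor Ccr2 was at 3.26 and 0.839 TPM in YFP+ libraries, against 18.1 and 59.6 TPM in YFP− libraries (-3.60, adjusted p = 0.00923). The chemokine receptor Ccr1 fell as well (-3.29, adjusted p = 0.0174). Neither passed under the 3 rescalings, where Ccr2 came closest under median-ratio scaling (-1.75, adjusted p = 0.05002). The unadjusted limma p was under 0.05 for Ccr2 under each of the 3, and for Ccr1 under none. Without the YFP− M library the change was -4.44 for Ccr2 and -4.31 for Ccr1. Without the YFP− FM library it was -2.77 for Ccr2 and -2.26 for Ccr1. The endotoxin co-receptor Cd14, which Kupffer cells also carry, was the gene called higher, at 2888 and 2767 TPM in YFP+ libraries, against 474 and 1203 TPM in YFP− libraries (1.90, adjusted p = 0.0239). It did not pass under the 3 rescalings, nor without the YFP+ M (adjusted p = 0.153), YFP+ FM (adjusted p = 0.231) or YFP− M library (adjusted p = 0.310). Cd14 was named after its values were seen.

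Of 10 further genes of nonclassical monocytes 0 were called higher and 2 lower, with a median change of -1.38. The fractalkine receptor Cx3cr1, which microglia carry in large amounts, was at 37.2 and 1.65 TPM in YFP+ libraries, against 531 and 815 TPM in YFP− libraries (-6.03, adjusted p = 8.07e-07), and missed the threshold under cyclic loess (adjusted p = 0.0530). The integrin Itgax fell (-3.10, adjusted p = 0.0211). Of 9 transcription factors of the monocyte lineage 0 were called higher and 1, Gfi1, lower (-1.44, adjusted p = 0.0191), with a median of -1.07. Of 9 ligands and adhesion genes that draw or hold monocytes 0 were called higher and 5 lower, with a median of -1.33. The cytokine Il34 (-1.33, adjusted p = 0.000475), the selectin ligand Selplg (-2.97, adjusted p = 0.00137) and fractalkine, Cx3cl1 (-2.79, adjusted p = 0.00244), were furthest past the threshold. Under the 3 rescalings Itgax, Gfi1 and Il34 had unadjusted p-values above 0.05. Selplg passed under quantile normalization (adjusted p = 0.0377) and cyclic loess (adjusted p = 0.0493) but not under median-ratio scaling (-0.68, adjusted p = 0.681), and Cx3cl1 passed only under median-ratio scaling of the 3 (adjusted p = 0.0289). At an unadjusted p under 0.05, limma placed 0 genes of these 3 lists higher on deposited TPM. Median-ratio scaling called 3 of 10 nonclassical genes, 2 of 9 transcription factors and 2 of 9 ligands and adhesion genes higher. It called 1, 0 and 1 lower in the same order, where 5.62% of all genes were called higher and 5.9% lower. Quantile normalization and cyclic loess called 0 genes of the 3 lists higher. Under each rescaling Ccl2 and Ccl7 were higher, and Csf1 and Cx3cl1 lower, at an unadjusted limma p under 0.05.

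**Figure D4:**
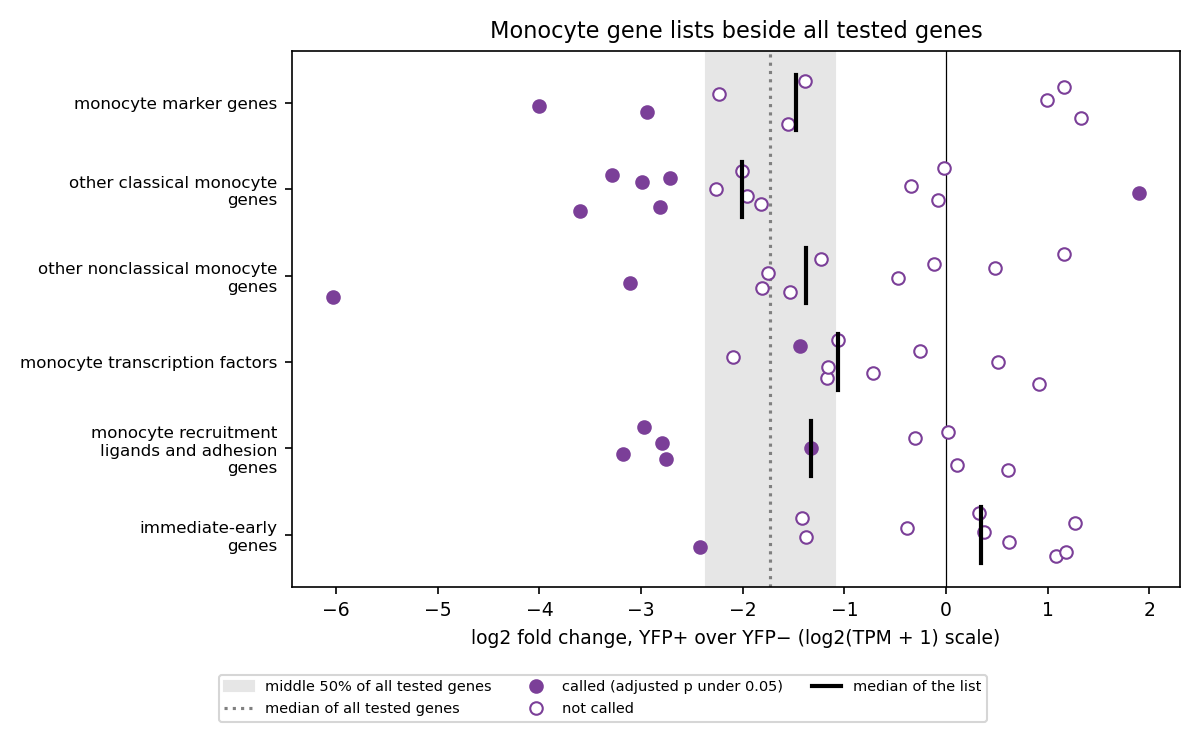
Log2 fold change, YFP+ over YFP− (log2(TPM + 1) scale), of the tested genes of 6 lists; filled circles were called at an adjusted p under 0.05 and black bars are list medians. The grey band holds the middle 50% of all tested genes and the dotted line their median (-1.73). The monocyte lists straddle that line, and the immediate-early genes have the highest median (0.35).

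For each tested gene the 1 gene whose values over the 4 libraries were most like it was sought among 8232 genes with a mean of at least 5 TPM. Likeness is the root mean square difference of log2(TPM + 1) after taking away each gene's mean, and with 4 libraries many genes come close. Nearest to Ly6c2 was Pglyrp1 (0.144), an entry of the nonclassical list, at 70.9 and 107 TPM in YFP+ libraries, against 404 and 216 TPM in YFP− libraries. Nearest to Plac8 was H2afj (0.184), to F13a1 Il2rb (0.184), to Fn1 Gfap (0.0620), to Treml4 Stom (0.150), to Ace Strada (0.123), to Nr4a1 Tmem132a (0.168) and to Spn P2ry14 (0.0156). Within 0.25 of Spn there were 562 genes and within 0.25 of Fn1 52, against 3 for Nr4a1 and 4 for Ly6c2.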

How the data were processed

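Tables came 1 per library. The authors deposited, per the file headers, mean read coverage, FPKM and TPM for every gene. Per the submitters' processing notes HISAT was used, with GRCm38 and mm10 given as builds, while the program behind the tables was not given in the sources used here. Groups follow the genotype label, and replicate numbers the order of deposit. Rows that share a gene name were summed (166 of 23337 names). A gene entered the fit with 1 TPM or more in 2 or more libraries. Its log2(TPM + 1) values were fitted with limma 3.58.1 (R 4.3.3), using a mean-variance trend and two-sided tests. The prior degrees of freedom were infinite, so each p-value rests on the variance trend over all genes. The fit was tested on simulated data, where it missed most of the smallest changes and found the largest. The changes of Ly6c2, Plac8, Treml4, Nr4a1 and Spn were smaller in size than any simulated. Far fewer genes were changed in the simulation than were called here, so it cannot tell how often this fit misses such changes. Lack of a call is therefore not taken as lack of a change.

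The genes and lists were chosen with earlier results of these data known. Names were found for 162 of 163 list entries, 3 of them under an older symbol. Beyond the 9 genes, their relatives, Ccr2 and Cx3cr1, the rule names up to 3 called genes per list, those of smallest adjusted p (1 of them is not reported here), and marker lists are given as sums. Deviations from group means in libraries with the same title start had a correlation of -0.011, so the start served only as an alternative block. On deposited TPM the block lowered the number of genes called from 4898 to 1749. Under quantile normalization it raised that number from 353 to 1402. Whether libraries with the same start share deviations after rescaling was not tested directly. Coordinates are those of the deposited tables. Promoters came from RefSeq, coding sequence and antisense genes from GENCODE M21. Tables and figures were made with pandas 2.3.3, SciPy 1.17.1, NumPy 2.4.6 and matplotlib 3.10.9 under Python 3.11.15.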

Additional observations from a re-analysis of the deposited data

Results flagged for a closer look

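The difference between YFP+ and YFP− libraries had opposite signs in the M and the FM libraries for Treml4 and Plac8, though for Plac8 that of the M libraries was close to 0. For Treml4 the log2 difference, YFP+ minus YFP−, was 2.53 in M libraries and -0.55 in FM libraries. For Plac8 it was -0.064 in M libraries and 2.71 in FM libraries. With 1 library of each kind neither contrast between M and FM was tested.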

How the results depend on the processing

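Over 14 alternatives the calls moved widely. Genes called higher in YFP+ libraries (64) were 120 on FPKM, 148 under quantile normalization, 689 under median-ratio scaling, 23 with the title start as a replicate block and 752 with block and quantile normalization. Genes called lower (4834) were 3078 with a pseudocount of 0.1, 2902 with a minimum of 5 TPM, 205 under quantile normalization, 723 under median-ratio scaling, 40 under cyclic loess, 1726 with the block and 650 with block and quantile normalization. With each library left out 12 to 71 genes were called higher and 24 to 8280 lower; the lone library of a group is then assumed to vary like the others.

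Of the monocyte marker genes 0 were called higher and 2 lower. On FPKM 1 was called higher, under median-ratio scaling 2. Called lower were 1 with a minimum of 5 TPM, 3 with no filter, 0 under quantile normalization, 1 under median-ratio scaling, 0 under cyclic loess, and 1 with the block, with or without quantile normalization. Leaving out each library gave 0 to 1 called higher and 0 to 4 lower. With the block alone F13a1 no longer passed (adjusted p = 0.108) and Fn1 did (0.0386). Ccr2 (0.108), Ccr1 (0.137) and Cd14 (0.131) no longer passed with the block either. The block called 2 of 10 Kupffer cell markers higher and 0 of 10 T and NK cell markers lower. With block and quantile normalization Ccr2 passed (-1.63, adjusted p = 0.0247), and Ccr1 (0.105) and Cd14 (0.382) did not. The sign turned for Ly6c2 under median-ratio scaling (0.74), for Nr4a1 without the YFP− M library (-0.076, in a range up to 2.40 with each library left out), and for Spn under quantile normalization with or without the block (0.69), median-ratio scaling (0.51) and cyclic loess (0.84). The cause was not tested. Among the values of single genes under alternatives, 87 kept their direction and side of the threshold, 12 no longer passed, 7 newly passed and 6 turned sign. Depth in reads is unknown, which limits F13a1 and Vcan most.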
